A study of Rattus norvegicus with 6 samples.

Results

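The myeloid C-type lectin receptors described here are 9 genes, Mrc1, Clec4a1, Clec4a2, Clec4a3, Clec4d, Clec4e, Clec7a, Clec10a and Cd209a, of 14506 genes with a name of their own on the array. They were chosen by gene symbol. For a gene with several rows the row with the highest mean over all arrays was to be used, but each of the 9 had 1 row, so no measured value entered that choice. The genes were proposed with earlier results of these arrays known. Bone cells of Sprague Dawley rats aged 2 to 5 days were taken from long bones and allowed to adhere to wells covered with bovine milk osteopontin (OPN), an acidic phosphoprotein of bone matrix, or mouse prothrombin (PT), the precursor of thrombin. Adherent cells were profiled on Affymetrix Rat Gene 1.0 ST arrays, 3 of OPN-adherent cells (replicates 2, 3 and 4) and 3 of PT-adherent cells (replicates 1, 2 and 4). Both groups are mixtures caught by a coating, and no genotype or drug separates them. No label ties the arrays of a group to different animals or preparations, and the p-values reflect the variation among these arrays alone, which may be technical.

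C-type lectin receptors are membrane proteins with a calcium-dependent or related sugar-binding fold, through which macrophages, dendritic cells and neutrophils recognise glycans on microbes, on dying cells and on the body's own glycoproteins. Some are mainly endocytic and carry glycoproteins to lysosomes. Others signal, either through the kinase Syk and the adaptor Card9, which switch on inflammatory genes, or through inhibitory motifs that recruit phosphatases such as Ptpn6. In bone and marrow some are known from resident macrophages and some also from neutrophils.

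Values are linear PLIER signals, the authors' summary of all probes in a probe set. The table holds 29215 rows, with medians per array of 207.8 to 231.4 units. Log2 values of 2 arrays correlated at 0.988 or more within a coating and at 0.979 or less across coatings. Detection calls were not used, and rows at background level cannot be named here. Of 19 measured macrophage markers 0 were at 0 on all arrays, and the same held for 11 osteoclast markers. That does not show signal above background. In such bulk samples fewer cells of a type and less RNA per cell cannot be told apart.

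Of the 9 receptor genes, 3 were lower in OPN-adherent cells, the mannose receptor gene Mrc1 and the neighbouring lectin genes Clec4a1 and Clec4a3. Their mean signals on OPN were 57.4%, 63.6% and 62.3% of those on PT. The other 6 were not called, and their log2 differences lay between -0.28 for Clec4a2 and 0.20 for Clec4e. Limma's test, adjusted over all rows by the Benjamini-Hochberg method, called 3 members lower and 0 higher at an adjusted p of 0.05. At an unadjusted p of 0.05 the counts were 5 lower and 1 higher. The share of all rows passing that unadjusted threshold was not computed. Unadjusted counts, here and for the lists below, thus have no background beside them. By adjusted p, 0.77% of all rows were called lower and 5.05% higher on OPN. Among the 14506 named genes, with 1 row each, 162 were called lower and 1105 higher. With array medians made equal or with quantile normalisation the share of all rows called lower was 1.89% and 2.55%, and the share called higher 4.08% and 4.66%. The median log2 difference was -0.24 over the 9 genes and 0.03 over all rows. Log2 values are of the signal plus 16, an offset that understates differences of dim rows, and differences are OPN minus PT.

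**Figure D1:**
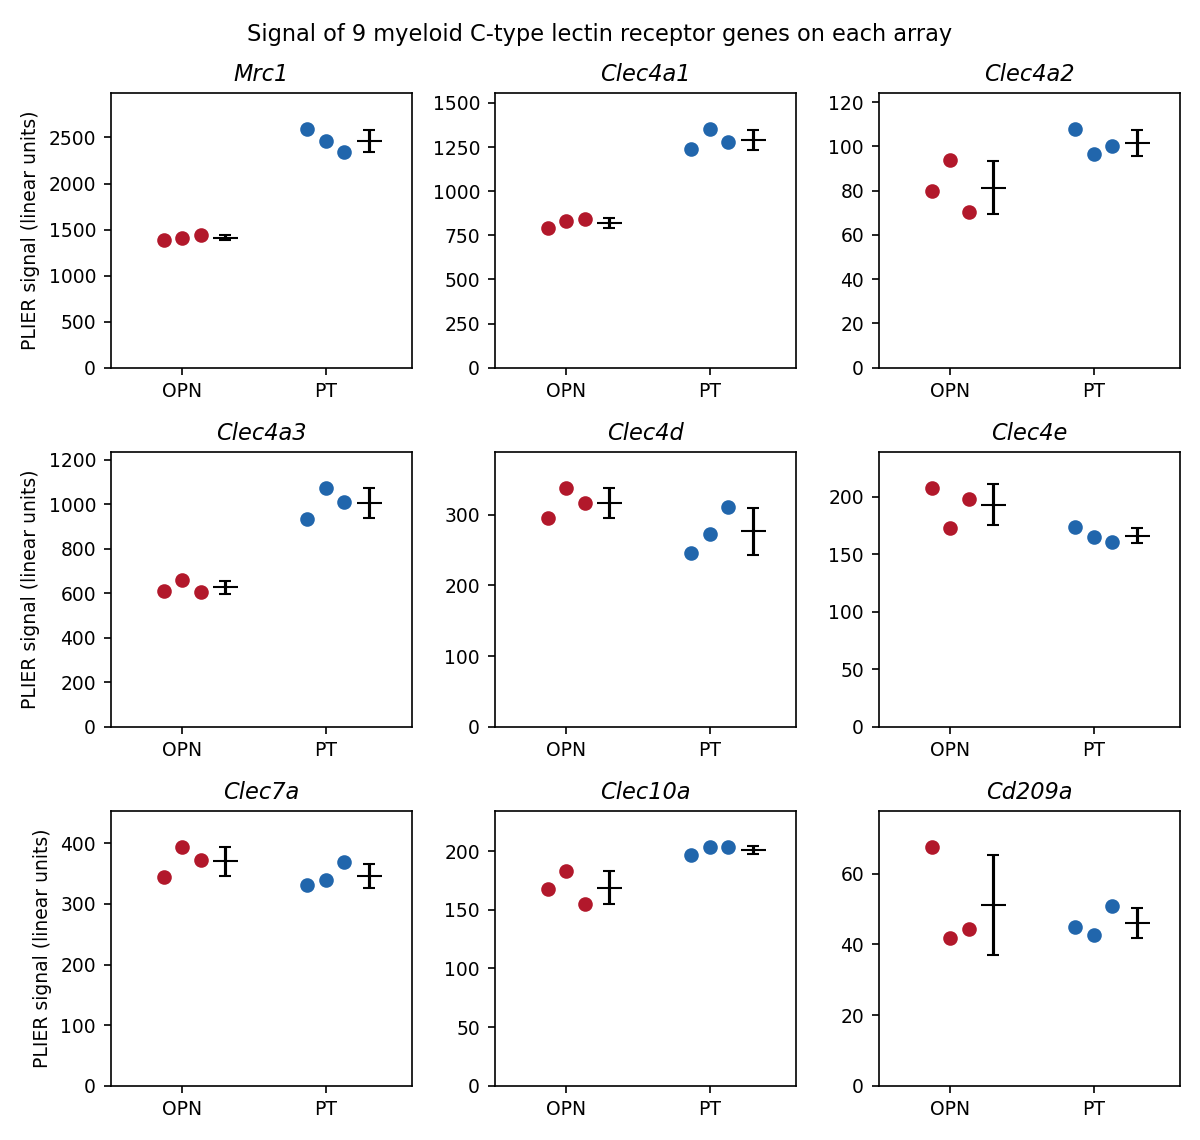
PLIER signal in linear units (vertical axes, each starting at 0) of the 9 receptor genes on each array of OPN-adherent (red, left) and PT-adherent (blue, right) cells. Each point is 1 array and the black bar is the mean with its SD over 3 arrays. Mrc1, Clec4a1, Clec4a3, Clec4a2 and Clec10a have all OPN arrays below all PT arrays, and the remaining 4 genes overlap.

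Among the endocytic receptors, Mrc1 moved most. Mrc1 (probe set 10796476, rat chromosome 17) encodes the mannose receptor CD206, which takes up glycoproteins with mannose, fucose or N-acetylglucosamine ends and also collagen fragments. Its signal was 1386, 1408 and 1446 units on OPN replicates 2, 3 and 4, against 2589, 2456 and 2345 units on PT replicates 1, 2 and 4. The highest OPN array thus lay far below the lowest PT array, and the spread within a coating was small beside the gap. The means were 1413 ± 30.6 units on OPN and 2463 ± 122 units on PT (SD, n = 3 each). The log2 difference was -0.79 (95% interval -0.95 to -0.64), with an adjusted p of 0.000212 in limma. Counting Mrc1 itself, 12 of the 29215 rows had a difference this low.

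Clec10a (probe set 10735182, chromosome 10) encodes the macrophage galactose-type lectin, which binds terminal galactose and N-acetylgalactosamine. It had 167.9, 183.0 and 155.1 units on OPN and 196.9, 203.0 and 203.2 units on PT. All OPN arrays were below all PT arrays, but the gap between them was narrower than the spread on OPN. The log2 difference of -0.24 (95% interval -0.41 to -0.06) did not pass, with an adjusted p of 0.139 in limma. With quantile normalisation Clec10a was called lower (log2 difference -0.29, adjusted p = 0.0489), and adjusted p with 1 array left out ran between 0.144 and 0.331.

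Cd209a (probe set 10756161, chromosome 12) is a relative of DC-SIGN, the dendritic cell lectin for mannose- and fucose-rich glycans. Its row was dim, in the lowest 4.49% of rows by mean signal. It had 67.5, 41.9 and 44.3 units on OPN and 44.9, 42.6 and 50.9 units on PT. A single array, OPN replicate 2, stood above the rest, and the groups overlapped. The log2 difference was 0.10 (95% interval -0.22 to 0.41, adjusted p = 0.798 in limma), and it was -0.070 without OPN replicate 2.

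The Clec4a genes encode short receptors of the DCIR type, and RefSeq lists Dcir4, Dcir3 and Dcir2 as other names of Clec4a1, Clec4a3 and Clec4a2. In human and mouse, members of this family with an inhibitory motif in the cytoplasmic tail restrain dendritic cell activation. Not all members need carry that motif, and whether rat Clec4a1, Clec4a3 and Clec4a2 do was not examined. Clec4a1 (probe set 10858553, chromosome 4) had 789.1, 828.6 and 842.5 units on OPN, against 1240, 1351 and 1278 units on PT. Clec4a3 (probe set 10858559, chromosome 4) had 610.6, 661.0 and 606.3 units on OPN, against 934.4, 1071 and 1008 units on PT. In both genes every OPN array was well below every PT array. The log2 difference of Clec4a1 was -0.64 (95% interval -0.80 to -0.48, adjusted p = 0.000768 in limma). That of Clec4a3 was -0.67 (95% interval -0.85 to -0.49, adjusted p = 0.00120 in limma).

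Clec4a2 (probe set 10858566, chromosome 4), the third gene of this type among the 9, was dim, with 79.8, 93.8 and 70.1 units on OPN and 107.7, 96.5 and 100.2 units on PT. The groups did not overlap, but OPN replicate 3 came close to PT replicate 2. Its log2 difference was -0.28 (95% interval -0.50 to -0.05) and did not pass, with an adjusted p of 0.173 in limma. The size of its difference depended on the offset, at -0.33 with an offset of 1 and -0.19 with an offset of 64. In all, 5 of the 9 genes had every OPN array below every PT array, as did 7.4% of all rows. For the reverse order the counts were 0 of the 9 genes and 16.3% of all rows.

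The receptors that signal through Syk gave no call. Clec4e (probe set 10865381, chromosome 4) encodes Mincle, which in mouse and human binds mycobacterial glycolipids and pairs with the Fc receptor gamma chain. It had 207.5, 173.2 and 198.4 units on OPN and 173.4, 164.7 and 160.5 units on PT. The groups overlapped only through OPN replicate 3, which lay just below PT replicate 1. The log2 difference was 0.20 (95% interval 0.01 to 0.38), with an unadjusted p of 0.0437 and an adjusted p of 0.263 in limma.

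Clec4d (probe set 10858599, chromosome 4) encodes MCL, which forms complexes with Mincle in rodents. It had 296.0, 337.4 and 316.4 units on OPN and 245.4, 272.9 and 310.7 units on PT. PT replicate 4 reached into the range of the OPN arrays. The log2 difference of 0.19 (95% interval -0.03 to 0.41) did not pass, with an adjusted p of 0.363 in limma.

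Clec7a (probe set 10866019, chromosome 4) encodes dectin-1, the receptor for fungal beta-glucan, which carries its own activating motif. It had 345.1, 393.6 and 372.7 units on OPN and 331.5, 339.5 and 369.2 units on PT, so the groups overlapped. Its log2 difference was 0.09 (95% interval -0.09 to 0.27, adjusted p = 0.643 in limma). The intervals of Clec7a, Clec4d and Clec4e lie wholly above those of Mrc1, Clec4a1 and Clec4a3. Whether the differences of these genes differ from each other was not tested.

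**Figure D2:**
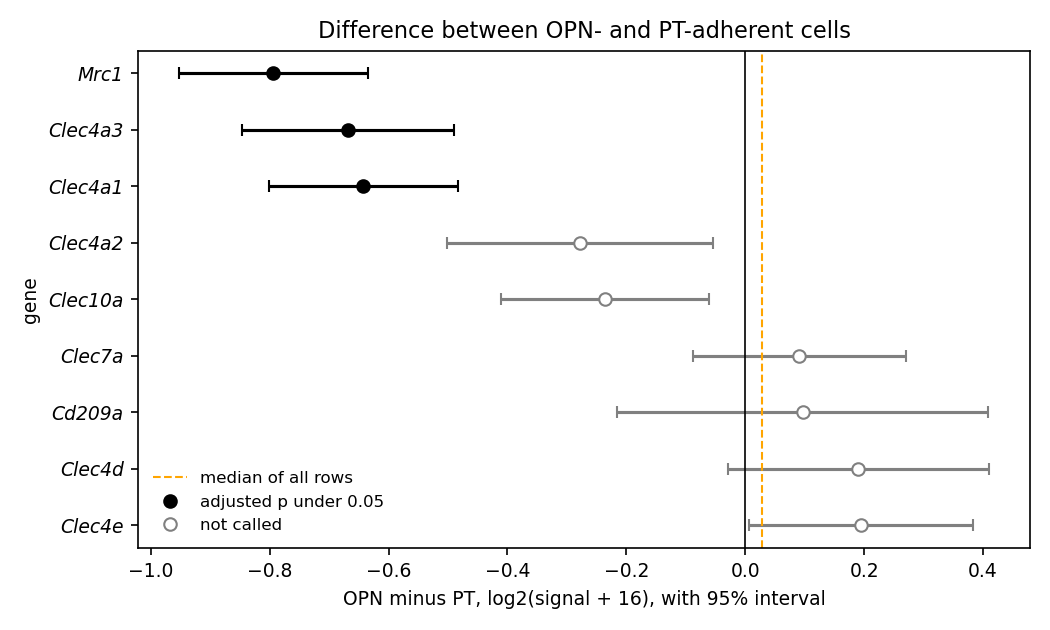
Difference between OPN- and PT-adherent cells in log2(signal + 16) for each of the 9 genes (rows), with 95% intervals from limma. Filled points have an adjusted p under 0.05, open points were not called, and the dashed line is the median of all rows (0.03). The 3 filled points lie between -0.79 and -0.64, and the other 6 between -0.28 and 0.20.

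Of the 9 genes, 5 lie within 1 run of neighbouring genes on chromosome 4. In RefSeq's GRCr8 annotation a run of 7 protein-coding genes goes Clec4a1, Clec4a3, Clec4a2, Clec4a, Clec4b2, Clec4d and Clec4e, and all 7 have a row of their own on the array. Clec4a and Clec4b2 are not among the 9, and Clec4a was added after its values were seen because it lies within this run. Along this order the log2 differences were -0.64, -0.67, -0.28, -0.23, -0.10, 0.19 and 0.20. The 2 genes called lower are those at one end, and the genes at the other end had the values above 0. Clec4a had 318.2, 386.9 and 294.6 units on OPN and 388.1, 375.2 and 414.2 units on PT, with overlapping groups and an adjusted p of 0.286 in limma. For Clec4b2 the means were 128 ± 12.9 units on OPN and 138 ± 17.8 units on PT (SD, n = 3 each, adjusted p = 0.704 in limma). The Clec4a genes are close relatives, and whether their probe sets share sequence was not examined. Clec7a lies farther along the chromosome, beyond 116 other protein-coding genes, between Clec1a and Olr1.

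**Figure D3:**
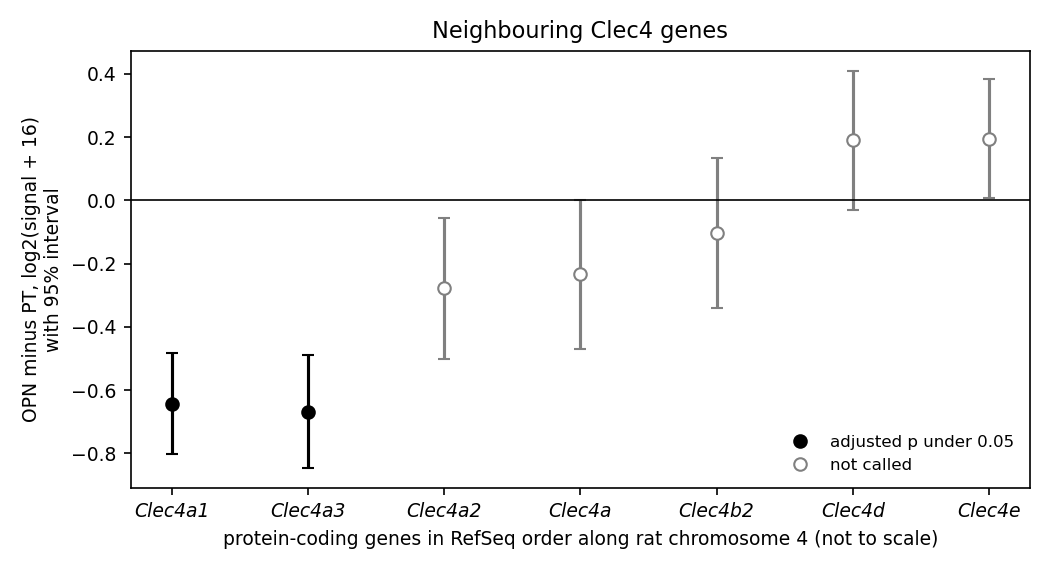
Difference between OPN- and PT-adherent cells in log2(signal + 16), with 95% intervals from limma, for the 7 neighbouring genes in their order along chromosome 4. Filled points have an adjusted p under 0.05 and open points were not called. The values run between -0.67 for Clec4a3 and 0.20 for Clec4e.

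Promoter sequence is shown for the 3 genes that were lower on OPN and for 2 chromosome 4 neighbours that were not called, so that called and uncalled genes can be set side by side. Each line holds the 250 bases before the gene's start in RefSeq's promoter table for GRCr8, read along the gene's own strand. Capitals mark GAGGAA or its reverse complement TTCCTC, the core bound by the myeloid factor PU.1 and by other ETS proteins. The windows are chr17:82157475-82157724 on the plus strand for Mrc1, chr4:157845561-157845810 on the plus strand for Clec4a1, chr4:157886508-157886757 on the plus strand for Clec4a3, chr4:157934346-157934595 on the plus strand for Clec4a2 and chr4:158298468-158298717 on the minus strand for Clec4e.
Mrc1: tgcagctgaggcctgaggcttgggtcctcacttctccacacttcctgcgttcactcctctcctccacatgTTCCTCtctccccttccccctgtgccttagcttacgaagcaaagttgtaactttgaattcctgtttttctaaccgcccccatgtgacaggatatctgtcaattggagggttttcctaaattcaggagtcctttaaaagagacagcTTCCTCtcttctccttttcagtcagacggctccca
Clec4a1: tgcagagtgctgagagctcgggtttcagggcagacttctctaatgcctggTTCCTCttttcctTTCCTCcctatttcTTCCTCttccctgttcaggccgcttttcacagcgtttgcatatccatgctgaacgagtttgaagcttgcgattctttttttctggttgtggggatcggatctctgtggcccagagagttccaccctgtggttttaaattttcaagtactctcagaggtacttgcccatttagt
Clec4a3: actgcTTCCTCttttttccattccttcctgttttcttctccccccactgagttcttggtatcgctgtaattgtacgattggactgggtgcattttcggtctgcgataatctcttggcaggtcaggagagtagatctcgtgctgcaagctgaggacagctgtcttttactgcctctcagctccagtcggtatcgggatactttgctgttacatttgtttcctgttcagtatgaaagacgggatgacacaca
Clec4a2: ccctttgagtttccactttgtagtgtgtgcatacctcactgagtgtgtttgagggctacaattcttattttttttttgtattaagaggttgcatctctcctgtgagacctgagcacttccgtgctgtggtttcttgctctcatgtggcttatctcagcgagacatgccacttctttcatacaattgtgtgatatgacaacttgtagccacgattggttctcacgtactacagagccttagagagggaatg
Clec4e: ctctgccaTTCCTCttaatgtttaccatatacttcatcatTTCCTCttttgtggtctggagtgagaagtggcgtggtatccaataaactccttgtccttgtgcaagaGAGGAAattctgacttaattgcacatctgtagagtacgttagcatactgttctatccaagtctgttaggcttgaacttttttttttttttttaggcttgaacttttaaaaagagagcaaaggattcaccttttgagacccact

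The core was found 2 times before Mrc1, 3 times before Clec4a1, 1 time before Clec4a3, 3 times before Clec4e and 0 times before Clec4a2. In Mrc1 the nearer copy begins 35 bases before the start, while in Clec4a1 the 3 copies lie together, beginning 200, 187 and 173 bases before it. RefSeq promoters were matched for 8 of the 9 genes, all but Clec10a. Of these 8, 5 hold the core on either strand, namely Mrc1, Clec4a1, Clec4a3, Clec4d and Clec4e, against 23.3% of 33469 promoters of the same length. It is thus present before genes that were lower on OPN and before genes that were not called. CATGTG, a core of MITF-type factors, or its reverse complement was found in 2 of the 8 (Mrc1 and Clec4a2) and in 12.1% of all promoters. The AP-1 motif TGANTCA was found in 0 of the 8 and in 6.34% of all. These are matches of letters and do not show binding.

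Across the 6 arrays, Clec4a1 and Clec4a3 had the most similar pattern of any pair of the 9 genes. Likeness was measured as the root mean square distance between log2 values centred per gene, and this pair lay 0.050 apart. Mrc1 was 0.100 from Clec4a1 and 0.117 from Clec4a3. Clec4a2 and Clec10a lay 0.069 apart, and Clec4d and Clec7a 0.071 apart. By contrast, Mrc1 and Clec4d lay 0.512 apart, the widest pair.

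Of all named genes, the 5 nearest to Mrc1 were Cd163 (0.044), C1qa (0.071), Hpgds (0.071), Atp1b1 (0.075) and Axl (0.090). Cd163 is the scavenger receptor for haemoglobin, C1qa encodes a chain of complement C1q, Hpgds makes prostaglandin D2, Atp1b1 encodes a sodium pump subunit and Axl is a receptor kinase that clears dying cells. Nearest to Clec4a1 were the ficolin gene Fcna (0.031), Axl (0.032), the chemokine gene Ccl3 (0.045), Atp1b1 (0.046) and the costimulatory gene Cd86 (0.048). For Clec4a3 they were Axl (0.031), Cd86 (0.034), C1qc (0.036), Fcna (0.045) and the nuclease gene Dnase1l3 (0.049). Axl was among the 5 nearest of all 3 receptors and averaged 943 ± 27.4 units on OPN against 1524 ± 74.6 units on PT (SD, n = 3 each). Fcna averaged 1513 ± 16.4 units on OPN against 2361 ± 105 units on PT (SD, n = 3 each). All these distances come from the same 6 arrays in 2 coatings and are given as a description.

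Other membrane proteins with a C-type lectin domain, a list not limited to receptors of myeloid cells, held no gene called lower. Of 33 measured, 8 rose on OPN and 0 fell in limma's test, with a median log2 difference of 0.04, and at an unadjusted p of 0.05 the counts were 9 and 2. The collagen receptor Mrc2, another member of the mannose receptor family, best known from fibroblasts and osteoblast-lineage cells, averaged 579 ± 40.5 units on OPN against 187 ± 32.6 units on PT (SD, n = 3 each). Its log2 difference was 1.56. Colec12 (1.50), a scavenger receptor of endothelial and stromal cells, and Selp (1.14), the P-selectin of platelets and endothelium, also rose. Olr1, the receptor for oxidised LDL, had a log2 difference of -0.25 (adjusted p = 0.0962 in limma) and was called lower with equal array medians and with quantile normalisation (adjusted p = 0.0286 and 0.0201). The low-affinity IgE receptor gene Fcer2 had -0.17 and the DC-SIGN relative Cd209d -0.17, both without a call. Clec5a (0.21), Clec12a (0.05), Cd302 (-0.06) and Clec9a (-0.05), named after their values were seen, were not called.

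Genes of the signalling machinery below these receptors were mostly not called. Of 21 measured, 2 rose and 0 fell in limma's test, with a median log2 difference of 0.01, and 7 and 4 passed an unadjusted p of 0.05. The kinase gene Src (0.47) and Bcl10 (0.33), the partner of Card9 in activating NF-kappa-B, rose. Fcer1g, the gamma chain that couples Mincle to Syk, averaged 1607 ± 108 units on OPN against 2034 ± 210 units on PT (SD, n = 3 each). Its log2 difference of -0.33 did not pass (adjusted p = 0.0933 in limma). Vav1 (-0.26) and Prkcd (-0.18), which act below Syk, and Nfkb1 (0.29) were not called. These counts depended on the setting. Quantile normalisation called 2 lower, Vav1 and Prkcd (adjusted p = 0.0187 and 0.0312), and 1 higher. Trend and robust settings called 2 lower, Vav1 and Fcer1g (adjusted p = 0.0194 and 0.0199), and 5 higher, Nfkb1 among them (adjusted p = 0.0221). Vav1 was also called lower with equal array medians, with an offset of 64 and with the filter on low rows (adjusted p between 0.0313 and 0.0491), and Fcer1g with that offset and that filter (adjusted p = 0.0398 and 0.0475). Bcl10 was not called with either scaling of the arrays (adjusted p = 0.0994 and 0.0908). Without PT replicate 1, Fcer1g was called (log2 difference -0.42, adjusted p = 0.0337 in limma), and with any 1 array left out Bcl10 was not (adjusted p between 0.0657 and 0.0917). The central members were named after their values were seen. Syk had a log2 difference of -0.18, Card9 0.08 and the inhibitory phosphatase gene Ptpn6 0.01, all without a call.

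Among 17 measured genes that these receptors can induce, 3 fell and 2 rose, with a median of -0.16. The chemokine genes Ccl3 (-0.62) and Ccl4 (-0.32) and the cytokine gene Il1b (-0.42) fell, while the neutrophil chemokine gene Cxcl1 (1.33) and the prostaglandin synthase gene Ptgs2 (0.84) rose. Cxcl1 and Ptgs2 are also made by stromal cells, and which cells gave the signal of the 17 genes was not tested. Egr2 had a log2 difference of 0.22 without a call. The calls of Il1b and Ccl4 were lost when an array was left out (1 of the 17 genes then called lower without any OPN replicate, PT replicate 2 or PT replicate 4, and 2 without PT replicate 1), and 5 and 4 genes were called lower with equal array medians and quantile normalisation.

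Mrc1 and Clec10a are known as genes that interleukin-4 raises in macrophages. The alternative activation list holds neither, and it includes receptor and signalling genes such as Il4r, Il13ra1 and Stat6. Among its 16 measured genes the counts were 3 higher and 0 lower in limma's test, and 6 and 0 at an unadjusted p of 0.05. The median was 0.08. The 3 were fibronectin Fn1 (1.24), the transcription factor gene Klf4 (0.94) and the receptor chain gene Il13ra1 (0.36). Stromal or endothelial cells also express all 3, and which cells gave their signal was not tested. The call of Il13ra1 held without PT replicate 1 and was lost without any other single array (adjusted p between 0.0661 and 0.158), with equal array medians (0.0558) and with an offset of 1 (0.0522). Socs2 (-0.15), Tgm2 (-0.14) and Pparg (-0.15) were not called. Arg1 (0.22), Retnla (0.09), Ccl17 (0.06), Ccl24 (0.10) and Ccl22 (-0.12), named after their values were seen, were not called either. Of 14 measured myeloid transcription factor genes, Nr1h3 (-0.56), which encodes the oxysterol receptor LXR-alpha, and Tfec (-0.32) fell and Klf2 (0.68) rose. Irf8 (-0.22), Id2 (0.34) and Cebpb (0.18) were not called, and the median was 0.05. Leaving out any array but PT replicate 1 ended the call of Tfec (adjusted p between 0.0878 and 0.129), and Id2 was called higher without PT replicate 4 (adjusted p = 0.0449), with an offset of 64, with the filter on low rows and with trend and robust settings (adjusted p between 0.0144 and 0.0341). Irf8 was called lower with equal array medians and with quantile normalisation (adjusted p = 0.0445 and 0.0310).

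Cell type markers moved on the same arrays, and their part in the differences of the receptor genes was not tested. Of 19 measured macrophage markers, 11 fell and 0 rose in limma's test (at an unadjusted p of 0.05, 12 and 1), with a median log2 difference of -0.42 and summed signals of 13980 to 15008 units on OPN and 16865 to 18695 units on PT. Cd163 (-0.87), C1qa (-0.75) and Aif1 (-0.61) fell, and Itgam (0.24), Cd68 (0.18) and Lyz2 (0.26) were not called. The differences of Mrc1, Clec4a1 and Clec4a3 lay within the range of those 11. Of 13 measured neutrophil markers 0 were called in either direction, with 5 higher and 0 lower at an unadjusted p of 0.05. Their median was 0.17. Neutrophils are a known source of Clec4d, Clec4e and Clec7a, so their summed signal is given for each array. It was 16972, 19099 and 18557 units on OPN replicates 2, 3 and 4, and 11605, 13449 and 18611 units on PT replicates 1, 2 and 4. Within each coating Clec4d and Clec7a ranked the arrays in the same order as this sum and Clec4e in the reverse order. Orders among so few arrays carry little weight, and a link of these genes to neutrophil content was not tested. PT replicate 4 was the PT array nearest the OPN arrays in the sum and in Clec4d and Clec7a. Without PT replicate 4, 6 of the 13 neutrophil markers were called higher on OPN, the log2 difference of Clec4d was 0.27 (adjusted p = 0.167 in limma) and that of Clec7a 0.13 (adjusted p = 0.468 in limma). Of 11 osteoclast markers 8 rose, with a median of 0.73 and sums of 29652 to 33198 units on OPN and 11782 to 14119 units on PT. All 17 osteoblast and stromal markers rose, with a median of 2.46 and sums of 67885 to 76191 units on OPN and 12560 to 13405 units on PT. Of 11 endothelial markers 10 rose, with a median of 0.61 and sums of 3558 to 3730 units on OPN and 2227 to 2363 units on PT. In each of these lists 0 markers were at 0 on all arrays, which does not show signal above background.

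**Figure D4:**
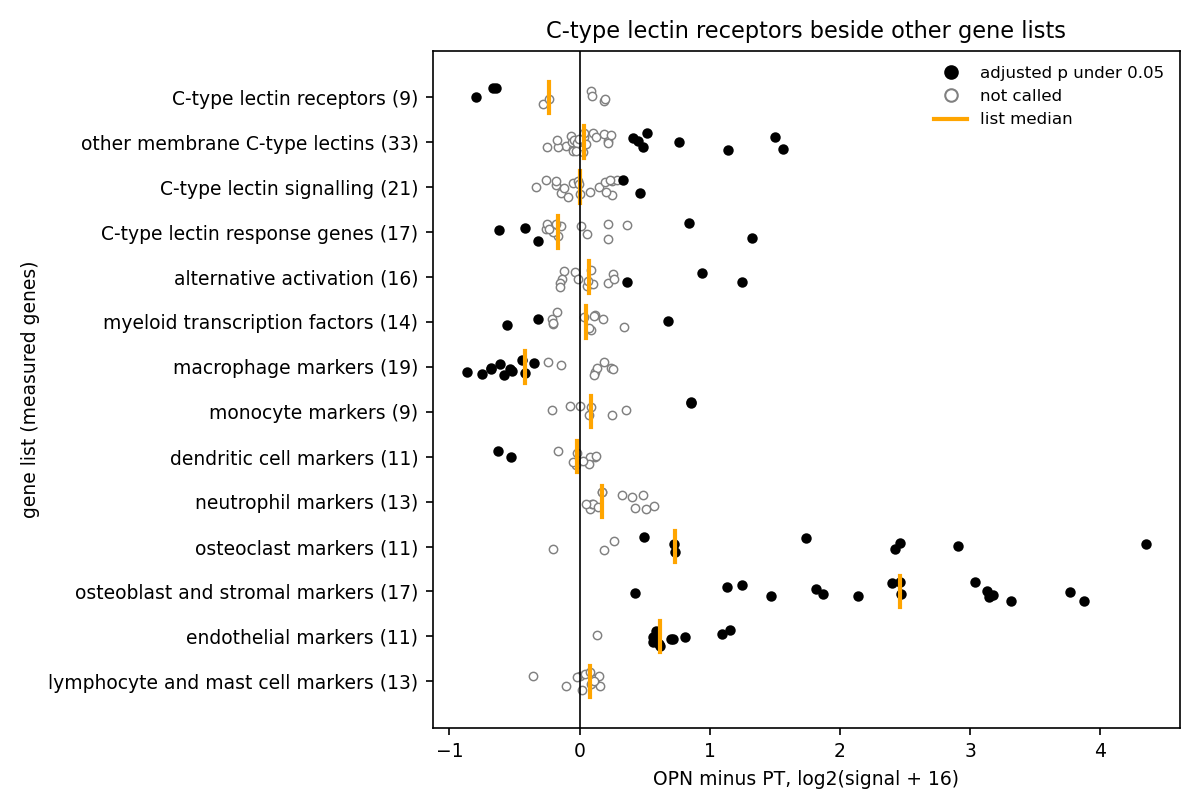
Difference between OPN- and PT-adherent cells in log2(signal + 16) for every measured gene (points) of the 9 receptors and of 13 other lists, with the number of measured genes in parentheses. Filled points have an adjusted p under 0.05, open points were not called, orange bars are list medians and vertical scatter within a list has no meaning. The receptors have a median of -0.24, beside -0.42 for macrophage markers, 0.73 for osteoclast markers and 2.46 for osteoblast and stromal markers.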

How the data were processed

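Per the submitters' processing notes, the authors made the deposited intensity of each probe set with Affymetrix Expression Console and PLIER. Versions, background correction, scaling, filters and genome build were not given in the sources used here. All intensities are linear, and array medians differ. The platform annotation named the rows: 15310 of 29215 had 1 symbol, 323 several and 13582 none. Rows with several symbols named no gene.

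To log2(intensity + 16), computed from the deposited table, a model with coating as its only term was fitted row by row (limma 3.58.1, lmFit and eBayes, R 4.3.3), with Benjamini-Hochberg adjustment over all rows and no filter. A row counts as called at an adjusted p under 0.05. On simulated arrays of 29215 rows the fit recovered 73.1% of 67 rows moved by 0.5 (log2) and 98.5% of 67 moved by 1. Among the rows that were not moved there were 16 false calls. Fewer rows were moved there than were called in the data, so these shares need not hold for the real arrays.

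The members, lists and tests were chosen with earlier results of these data known. All members are named, and of each list up to 3 genes per direction with the smallest p, except where stated. For Mrc1, Clec4a1 and Clec4a3 the 5 nearest genes are named. Numbers 2 and 4 are used in both groups without any label tying them to a common preparation, and the model has no block. The number of arrays limits the precision. Alternatives were other offsets, scalings and variance settings, a filter, the replicate block and leaving out each array. Running them on the other lists too was decided after seeing the data. Promoters are from RefSeq (GRCr8), whose build need not be that of the array annotation.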

Additional observations from a re-analysis of the deposited data

How the results depend on the processing

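Mrc1, Clec4a1 and Clec4a3 were called lower under each alternative run, namely offsets of 1 and 64, equal array medians, quantile normalisation, rows with a mean of at least 100, eBayes with trend and robust settings, the replicate block and leaving out each of the 6 arrays. Quantile normalisation called 4 members lower, adding Clec10a (-0.29), and the other alternatives called 3. No member was called higher under any of them (0 each time). The log2 difference of Mrc1 lay between -0.83 and -0.76 with 1 array left out, and the median over the members between -0.29 and -0.18. With 1 array left out Cd209a lay between -0.070, without OPN replicate 2, and 0.19, without OPN replicate 3. The rows with a mean of at least 100 held 7 of the 9 genes, leaving out Clec4a2 and Cd209a. Over all rows, calls numbered 225 lower and 1475 higher. They were 382 and 1731 with an offset of 64, 551 and 1193 with equal medians, 745 and 1360 with quantile normalisation, 343 and 1754 with the filter, and 516 and 1953 with trend and robust settings. With 1 array left out, lower calls ran between 95 and 181. With the replicate block they were 48 lower and 618 higher, with a median over the members of -0.30. PT replicate 1 and OPN replicate 3 have no same-numbered array in the other group. Differences under the block thus rest on the arrays numbered 2 and 4 alone, so its calls are not those of all 6 arrays. The block also leaves 1 residual degree of freedom, so its standard errors rest largely on the variance that eBayes pools over all rows. The block called 4 of the other membrane lectins higher (8 without it), 0 signalling genes (2), 2 alternative activation genes higher (3) and 6 endothelial markers higher (10), and 1 response gene (3), 1 myeloid transcription factor gene (2) and 7 macrophage markers (11) lower. Under it Src, Bcl10, Il1b, Ccl4, Il13ra1 and Tfec were not called (adjusted p = 0.129, 0.259, 0.0700, 0.236, 0.209 and 0.235 in limma). The deviations of same-numbered arrays correlated at -0.08 for number 2 and 0.07 for number 4, within the range of differently numbered pairs (-0.11 to 0.18). The numbers were not treated as pairs, and whether they mark shared preparations is not known. The lowest-mean row could not differ, since each member has 1 row. Without detection calls, signal over background limits Clec4a2 and Cd209a most. Clec4e and Clec10a averaged 180 and 185 units over all arrays, below the median of each array.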

Other observations

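Markers of the other myeloid cells that can carry C-type lectin receptors were mixed. Of 11 measured dendritic cell markers, Cd86 (-0.63) and Cd83 (-0.53), which activated macrophages also express, fell and 0 rose, with a median log2 difference of -0.02. At an unadjusted p of 0.05, 2 were lower and 0 higher. Snx22, Dpp4 and Itgae had log2 differences of -0.16, 0.12 and 0.08 without a call. Flt3, Zbtb46 and Xcr1, also in this list, had -0.02, 0.12 and -0.03, again without a call. Of 9 measured monocyte markers, S100a4 (0.86) and F13a1 (0.86) rose and 0 fell in limma's test, with a median of 0.08, and at an unadjusted p of 0.05 the counts were 4 higher and 1 lower. The fractalkine receptor gene Cx3cr1 had -0.21 and Ccr2 0.08, both without a call. Of 13 measured lymphocyte and mast cell markers 0 were called, with a median of 0.08, and at an unadjusted p of 0.05 the counts were 0 higher and 1 lower, which was Il7r. The call of Cd83 held without PT replicate 1 and was lost without any other single array (adjusted p between 0.0552 and 0.0826), and Plac8 was called without PT replicate 4 (log2 difference 0.50). Flt3, Xcr1 and Ccr2 were named after their values were seen.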
